A study of Mus musculus with 6 samples.

Results

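The lysosomal cathepsin genes Ctsa, Ctsb, Ctsc, Ctsd, Ctsh, Ctsk, Ctsl, Ctss and Ctsz and the cystatin C gene Cst3 were examined in monocytes sorted from mouse melanomas. They were taken by symbol from the gene column of the expression table, and all 10 were found among its 18341 listed genes. The monocytes came from subcutaneous tumours in C57BL/6 mice, removed 13 days after injection of cells labelled BAFF or control. The sample labels give the BAFF status as over expression or control and name B16.F10, a pigmented mouse melanoma line, as the source, while the study design names sorted monocytes. Each group had 3 libraries, called BAFF tumour 1 to 3 and control tumour 1 to 3 here. BAFF (B cell activating factor) is a cytokine of the TNF family. The labels do not say how BAFF expression was driven, whether the injected cells were 1 clone, or whether libraries came from separate mice, so p-values refer to the spread between these samples.

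Cathepsins are proteases of the endosome and lysosome, made as inactive precursors and activated in the acidic compartment. Macrophages and monocytes use them to digest engulfed material, to trim antigens and the invariant chain of MHC class II, and, when secreted, to cleave matrix. Ctsb, Ctsc, Ctsh, Ctsk, Ctsl, Ctss and Ctsz encode papain-like cysteine proteases, Ctsd an aspartic protease and Ctsa a serine carboxypeptidase. Cystatin C is a secreted inhibitor of the cysteine cathepsins and does not block cathepsin D.

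The values are CPM, reads scaled to a common library total. From the spacing of low values, 1 CPM stood for 4.72 to 27.6 reads, with the least depth in control tumour 3. BAFF tumour 2 and control tumour 1 were the deep libraries. Ribosomal RNA was uneven: CT010467.1 had 27017 CPM in control tumour 2, 43052 CPM in control tumour 3 and 5880 CPM or less in the other libraries. Listed genes held 50.2% and 39.8% of the total in that pair of controls. Because of this, each gene was also read after median-of-ratios size factors (RLE), which set the typical gene equal between libraries; the factors ran from 0.67 in control tumour 3 to 1.27 in control tumour 1. On the deposited scale the 12824 tested genes had a median log2 fold change (BAFF over control) of 0.23, and after RLE of 0.01. All 9 myeloid identity genes and all 11 Ly6C-high monocyte markers passed the filter on low values, which uses the mean over the 6 libraries. None of them was at 0 in any library. The same held for all 12 tumour macrophage markers. Pigment cell markers were present too, at a summed 88.0 to 182 CPM in BAFF tumour libraries and 439 to 763 CPM in controls.

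None of the 10 genes was called different between BAFF and control tumours, on the deposited scale or after RLE. Limma called 0 of 10 members at an adjusted p under 0.05, where 5.31% of all tested genes were called on the deposited scale and 17.1% after RLE. At an unadjusted p under 0.05 the members numbered 0 on the deposited scale, against 16% of all genes, and 3 after RLE (Ctss, Ctsh and Ctsl), against 30.6% of all genes. All 10 passed the filter of a mean of 1 CPM. The median log2 fold change of the 10 was 0.32 on the deposited scale and 0.07 after RLE. Within the cathepsin total of a library, 4 of 9 shares did not overlap between groups, higher for Ctss and Ctsh and lower for Ctsd and Ctsl. Set against the same total, 31.7% of all tested genes did not overlap. The exact permutation test of 3 against 3 libraries cannot give a p under 0.1, so no share could pass 0.05.

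**Figure D1:**
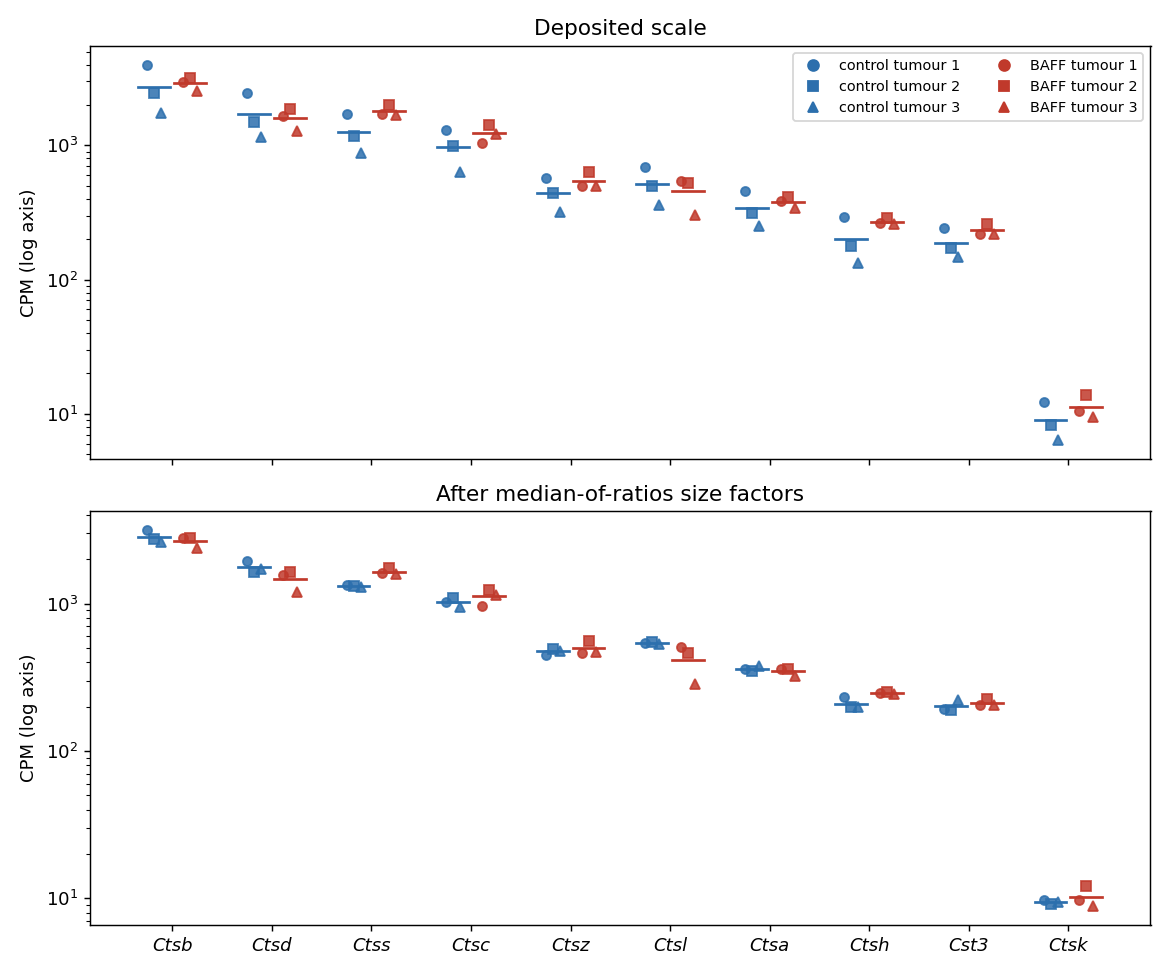
CPM (log axis) of the 10 genes in each of the 6 libraries, on the deposited scale (top) and after median-of-ratios size factors (bottom); symbols mark the library number and lines the group means. On the deposited scale control tumour 1 lies far above control tumour 3 for every gene, as with Ctsb at 3991 and 1744 CPM, and after size factors the controls draw together.

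Ctss encodes cathepsin S, the protease of antigen-presenting cells that removes the last part of the invariant chain from MHC class II and stays active outside the lysosome. As deposited it stood at 1717, 1996 and 1694 CPM in BAFF tumours 1 to 3 and at 1705, 1185 and 873 CPM in control tumours 1 to 3. Overlap came through control tumour 1 alone, which lay between the BAFF tumour libraries. The log2 fold change was 0.57 ± 0.33 (SE; limma adjusted p = 0.385). After RLE the libraries stood at 1606, 1749 and 1586 CPM in BAFF tumours and at 1346, 1311 and 1303 CPM in controls. Every BAFF tumour library then lay above every control. The fold change was 0.32 ± 0.12 (limma adjusted p = 0.089), with a 95% interval of 0.06 to 0.58 before adjustment over genes.

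Ctsh encodes cathepsin H, an aminopeptidase of the lysosome. After RLE it stood at 246, 253 and 243 CPM in BAFF tumours and at 231, 197 and 198 CPM in controls. The BAFF tumour libraries lay close together, with an SD of 4.8 CPM, and all above the controls. The log2 fold change was 0.25 ± 0.10 (limma adjusted p = 0.113), and 0.50 ± 0.32 on the deposited scale (adjusted p = 0.456), where control tumour 1 at 293 CPM was the highest library of all.

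Ctsl encodes cathepsin L, a broad endopeptidase. After RLE its level was 506, 463 and 283 CPM in BAFF tumours and 544, 548 and 535 CPM in controls. The controls were nearly equal, with a coefficient of variation of 1.24%, while the BAFF tumour libraries spread by 28.4%, the widest spread of the 10 genes, and all lay below the controls. The log2 fold change was -0.42 ± 0.18 (limma adjusted p = 0.133). It rested largely on BAFF tumour 3, without which it was -0.16 (adjusted p = 0.354). As deposited the groups overlapped (-0.17 ± 0.32, limma adjusted p = 0.801).

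Ctsd encodes cathepsin D, the main aspartic protease of the lysosome. After RLE it stood at 1554, 1642 and 1195 CPM in BAFF tumours and at 1949, 1652 and 1711 CPM in controls. The groups were separate by a narrow gap, between BAFF tumour 2 and control tumour 2. The log2 fold change was -0.28 ± 0.15 (limma adjusted p = 0.225), and -0.03 ± 0.33 on the deposited scale (adjusted p = 0.969). BAFF tumour 3 was the lowest library for Ctsd after RLE, as it was for Ctsl, and without it the RLE value was -0.14 (adjusted p = 0.546).

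In all, 4 of the 10 genes had groups that did not overlap after RLE, 2 higher and 2 lower. Over all tested genes 35.2% did not overlap, 17.3% higher and 17.8% lower, so this count is near the background. As deposited, 0 of the 10 were free of overlap, against 18% of all genes, 11.4% higher and 6.6% lower.

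Ctsb encodes cathepsin B, an endopeptidase that can also trim from the carboxyl end. It stood at 2782, 2770 and 2393 CPM in BAFF tumours and at 3150, 2739 and 2603 CPM in controls after RLE. The groups overlapped and the fold change was -0.09 ± 0.15 (limma adjusted p = 0.712), with an interval from -0.41 to 0.22. Ctsc encodes cathepsin C, the dipeptidyl peptidase that activates granule serine proteases. It stood at 969, 1245 and 1148 CPM in BAFF tumours and at 1032, 1097 and 941 CPM in controls (0.13 ± 0.13, adjusted p = 0.562). Here BAFF tumour 1 lay among the controls, and the other BAFF tumour libraries lay above them.

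For the remaining cathepsins the groups overlapped after RLE. Ctsz, whose product cathepsin Z is a carboxypeptidase, averaged 496 ± 50.4 CPM (SD, n = 3) in BAFF tumours and 474 ± 21.8 CPM in controls. Ctsa, whose product also shields lysosomal beta-galactosidase and neuraminidase 1, averaged 348 ± 22.4 and 361 ± 15.5 CPM. Their log2 fold changes were 0.06 ± 0.11 and -0.05 ± 0.10 (limma adjusted p = 0.744 and 0.765). The intervals ran from -0.17 to 0.30 for Ctsz and from -0.27 to 0.16 for Ctsa. Ctsk, the collagen-cleaving cathepsin of osteoclasts, was scarce, at 9.79, 12.1 and 8.88 CPM in BAFF tumours and 9.67, 9.16 and 9.48 CPM in controls. Control tumour 3 held about 30 reads of Ctsk, where every other member had 628 or more in its lowest library. Its fold change was 0.10 ± 0.15 (adjusted p = 0.696), with the BAFF tumour libraries on both sides of the controls. Fibroblast and stroma markers, of cells that can also transcribe Ctsk, summed to 35.7 to 58.1 CPM after RLE in BAFF tumours and 42.4 to 208 CPM in controls, and their part in the Ctsk level was not tested.

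Cst3 stood at 205, 226 and 206 CPM in BAFF tumours and at 193, 191 and 221 CPM in controls after RLE. Control tumour 3 lay among the BAFF tumour libraries. The log2 fold change was 0.08 ± 0.10 (limma adjusted p = 0.652), with an interval from -0.14 to 0.30, and 0.33 ± 0.32 on the deposited scale (adjusted p = 0.621).

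**Figure D2:**
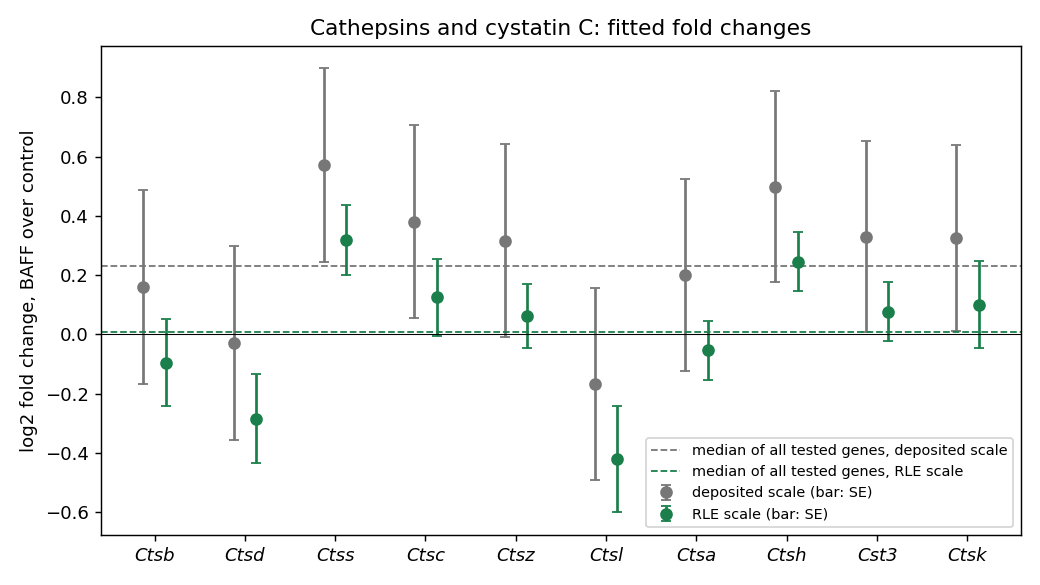
Fitted log2 fold change of each gene, BAFF over control tumours, with SE bars from limma, on the deposited scale (grey) and after size factors (green); dashed lines mark the median of all tested genes. After size factors Ctss at 0.32 and Ctsh at 0.25 are the highest and Ctsl at -0.42 and Ctsd at -0.28 the lowest, and none was called.

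Calls depended on the library scale. In the fit without control tumour 1, on the deposited scale, limma called Ctss (0.82, adjusted p = 0.0106), Ctsh (0.81, adjusted p = 0.00393) and Ctsc (0.62, adjusted p = 0.0446) higher. That fit called 36.7% of all tested genes higher. After RLE without the same library 0 of the 10 were called, where 5.85% of genes were called higher. Ctss was the one gene of the 10 with a fold change above 0 in all 23 fits run.

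Ratios between genes of one library are free of the library scale, while a summed CPM is not. The 9 cathepsins together made 9082, 10330 and 8168 CPM in BAFF tumours and 11492, 7588 and 5467 CPM in controls. The groups overlapped (exact permutation test on log2 values, two-sided, p = 0.6; the smallest p that 3 against 3 allows is 0.1). After RLE the sums were 8399 ± 706 and 8540 ± 473 CPM, a log2 difference of -0.03 (exact permutation p = 0.9). That difference in total was smaller than the spread between libraries of either group.

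The share of each cathepsin in that total was then compared. Ctss made up 18.9%, 19.3% and 20.7% of the cathepsin CPM in BAFF tumours and 14.8%, 15.6% and 15.98% in controls. Ctsh made up 2.89%, 2.79% and 3.18% in BAFF tumours and 2.55%, 2.35% and 2.43% in controls. Both shares were higher in 3 of 3 BAFF tumour libraries than in any control. Ctsd made up 18.3%, 18.1% and 15.6% in BAFF tumours and 21.5%, 19.7% and 20.97% in controls. Ctsl made up 5.95%, 5.12% and 3.70% in BAFF tumours and 6.00%, 6.53% and 6.56% in controls. Both shares were lower in every BAFF tumour library than in any control, for Ctsl only just in BAFF tumour 1 against control tumour 1. Each of these 4 shares reached the smallest p of the design (exact permutation test, p = 0.1), and 0.225 when adjusted over the 9 shares. The shares of Ctsa, Ctsb, Ctsc, Ctsk and Ctsz overlapped between groups. As background, the ratio to the summed cathepsins did not overlap between groups for 31.7% of all tested genes, 17.2% higher and 14.5% lower, so 4 of 9 is near the background.

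**Figure D3:**
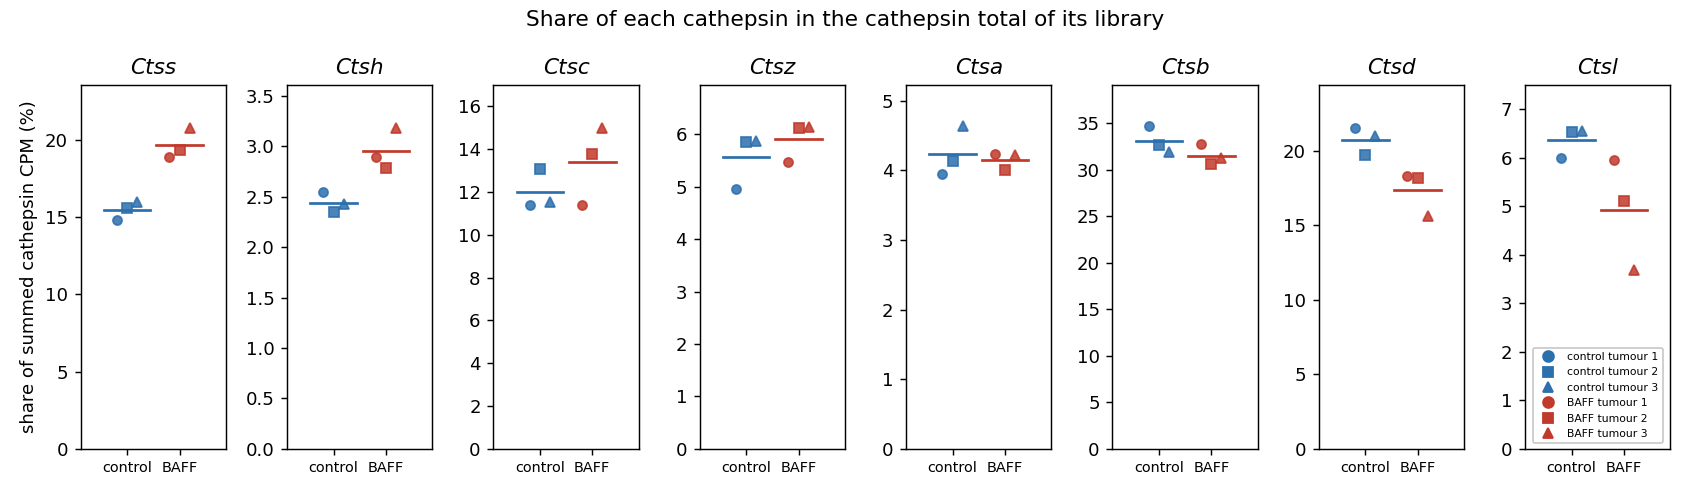
Share of the summed cathepsin CPM (%) that each of 8 cathepsins took in each library, with axes from 0 and lines at group means; Ctsk, at 0.134% or less, is not drawn. Ctss averaged 19.7% in BAFF tumours and 15.5% in controls, and Ctsd 17.4% and 20.7%.

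Depth differed between libraries, and its part in the shares was not tested. In the deep libraries, BAFF tumour 2 and control tumour 1, Ctss made up 19.3% and 14.8%, and Ctsd 18.1% and 21.5%. In the 4 shallow libraries Ctss averaged 19.8% in BAFF tumours and 15.8% in controls, and Ctsd 17.0% and 20.3%. The ribosomal RNA gene was high in control tumours 2 and 3, and its part in the shares was not tested either.

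The ratios of Ctss to Ctsl and Ctsd restate the shares, since these genes were picked for them, and are given as a description. The Ctss to Ctsl ratio was 3.17, 3.78 and 5.61 in BAFF tumours and 2.47, 2.39 and 2.44 in controls. The geometric mean was 1.67-fold higher in BAFF tumours. The Ctss to Ctsd ratio was 1.03, 1.06 and 1.33 in BAFF tumours and 0.69, 0.794 and 0.762 in controls. Its geometric mean was 1.52-fold higher in BAFF tumours. Among all 45 pairs of the 10 genes, 19 ratios did not overlap between groups, each at an exact permutation p of 0.1 and 0.237 adjusted over the 45. The pairs share genes, and no such count was made over pairs of other genes. Ctss took part in 7 of these among its 9 pairs, Ctsd in 6, Ctsl in 5 and Ctsc in 0.

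The level of the inhibitor was also read against the proteases. Cst3 stood at 2.42, 2.50 and 2.69 CPM per 100 CPM of cathepsins in BAFF tumours and at 2.13, 2.27 and 2.71 in controls. The highest ratio of all was control tumour 3, and the groups overlapped (log2 difference 0.10, exact permutation p = 0.5). Against the 7 cysteine cathepsins alone the difference was 0.04 (exact permutation p = 0.8).

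Levels between genes were compared per kilobase of coding sequence after RLE. Ctsb was highest at 2694 CPM per kb over the 6 libraries, with Ctss at 1450, Ctsd at 1315 and Ctsc at 773 next. The ranges of Ctss (1274 to 1710) and Ctsd (972 to 1585) overlapped, so that pair has no firm order over the 6 libraries. By coding length Ctsd (1440 ± 128) averaged above Ctss (1290 ± 22.1) in controls, and Ctss (1610 ± 86.7) above Ctsd (1190 ± 193) in BAFF tumours. Ctsz at 528, Cst3 at 493 and Ctsl at 479 CPM per kb had ranges that overlapped on this scale, as did Ctsa at 240 and Ctsh at 228, and Ctsk was lowest at 9.98. With the longest consensus transcript as length, untranslated parts included, Ctss came first (1095 CPM per kb), then Ctsd (760) and Ctsb (578). The order of the top 3, and that of Ctss and Ctsd within groups, thus depends on the length used, while Ctsk was last either way. The lower places depend on it too: per kilobase of that transcript Ctsz stood at 336, Cst3 at 241, Ctsh at 141, Ctsa at 97.3 and Ctsl at 77.8 CPM.

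The promoters of Ctss, Ctsd and Ctsl, of the 4 genes whose shares did not overlap, are shown because MiT/TFE factors, the regulators of lysosomal genes, bind the palindrome CACGTG, and PU.1, the myeloid master regulator, binds GAGGAAGT. The RefSeq promoter table (GRCm38.p6, 250 bases before to 50 after the start, both strands searched) matched 8 of the 10 genes, Ctsb and Ctsh apart. Capitals mark those motifs. The Ctss promoter lies at chr3:95526536-95526835 (+ strand), Ctsd at chr7:142387778-142388077 (- strand) and Ctsl at chr13:64370471-64370770 (- strand).
Ctss: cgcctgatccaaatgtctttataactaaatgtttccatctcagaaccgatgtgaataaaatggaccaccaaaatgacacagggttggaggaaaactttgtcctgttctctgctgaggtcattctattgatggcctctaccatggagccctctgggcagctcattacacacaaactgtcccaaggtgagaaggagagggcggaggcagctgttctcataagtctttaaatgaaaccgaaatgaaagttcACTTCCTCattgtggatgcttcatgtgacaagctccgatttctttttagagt
Ctsd: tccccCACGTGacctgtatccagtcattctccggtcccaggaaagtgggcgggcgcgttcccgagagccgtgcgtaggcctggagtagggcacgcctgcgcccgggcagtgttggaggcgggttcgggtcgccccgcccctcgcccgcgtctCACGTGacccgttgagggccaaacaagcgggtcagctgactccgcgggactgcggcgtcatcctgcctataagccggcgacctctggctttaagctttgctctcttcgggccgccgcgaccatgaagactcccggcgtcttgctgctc
Ctsl: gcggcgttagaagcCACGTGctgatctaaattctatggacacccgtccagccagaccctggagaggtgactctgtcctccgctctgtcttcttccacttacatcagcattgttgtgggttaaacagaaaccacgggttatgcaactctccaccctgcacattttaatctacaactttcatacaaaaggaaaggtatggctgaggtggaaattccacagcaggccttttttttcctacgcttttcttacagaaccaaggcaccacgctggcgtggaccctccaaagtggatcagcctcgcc
Ctsd held CACGTG at 245 and 98 bases before the start and Ctsl at 236 bases before it, and an alternative Ctsa promoter held it too. Of all 32851 promoters 7.15% held it, and of the 106 promoters of the lysosomal and class II lists 20.8% did. Ctss held GAGGAAGT as its reverse complement ACTTCCTC, which begins 2 bases before the start and runs across it. Ctsc held the motif as well, where 3.20% of all promoters and 1.89% of those on the lists did. No window held both motifs. These matches describe letters and show no binding.

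Of the MiT/TFE factor genes, none of the 4 was called on the deposited scale. After RLE Mitf was lower in BAFF tumours (64.0 ± 5.57 against 85.6 ± 10.7 CPM; log2 fold change -0.41 ± 0.12, limma adjusted p = 0.0305; deposited -0.16, adjusted p = 0.811). Tfeb, Tfe3 and Tfec were not called at RLE fold changes of 0.10, 0.11 and 0.35. Among all tested genes 9.91% were called lower after RLE. Mitf is also a melanocyte gene.

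Other lysosomal peptidases outside the 10 included the one cathepsin that was called. Ctse, an endosomal aspartic protease of immune and epithelial cells, stood at 4.25, 2.46 and 5.03 CPM in BAFF tumours and 2.30, 1.123 and 1.06 CPM in controls. Every BAFF tumour library lay above every control, BAFF tumour 2 only just. It rose by 0.98 ± 0.30 on the deposited scale (limma adjusted p = 0.0299) and by 0.82 ± 0.24 after RLE (adjusted p = 0.033). The call was lost in 4 of the 6 fits that each left out 1 library on the deposited scale, those without BAFF tumour 1, 2 or 3 or control tumour 2 (adjusted p from 0.0734 to 0.381). After RLE it was also lost in 4 of 6 such fits (adjusted p from 0.055 to 0.125), those that kept BAFF tumour 2 and control tumour 1. It rested on 5 to 68 reads a library. Of 9 tested genes on this list of peptidases, 1 was higher and 0 lower on the deposited scale, where 1.81% and 3.5% of all genes were called. After RLE 2 were higher, Ctse and the aspartic protease gene Napsa (76.8 ± 6.7 against 42.3 ± 10.5 CPM as deposited; RLE 0.62 ± 0.12, adjusted p = 0.00359), and 1 lower, the tripeptidyl peptidase gene Tpp1 (-0.35 ± 0.10, adjusted p = 0.0398), against 7.18% and 9.91% of all genes. Lgmn, the asparaginyl endopeptidase that processes cathepsins, was not called at 1003 ± 157 and 893 ± 272 CPM (RLE -0.05, adjusted p = 0.837).

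On the list of cystatins and other cathepsin inhibitors Serpinb6a, an intracellular serpin gene, was lower. Whether its product inhibits any of the 9 cathepsins examined here was not tested. Serpinb6a stood at 21.04, 18.8 and 18.5 CPM in BAFF tumours and 96.3, 45.4 and 36.8 CPM in controls, with no overlap. It fell by 1.44 on the log2 scale as deposited (SE 0.32, limma adjusted p = 0.00053) and by 1.69 after RLE (SE 0.15, adjusted p = 3.93e-05). As deposited, the call was lost without BAFF tumour 3 (-1.41, adjusted p = 0.0509). Its close paralogue Serpinb6b was not called (RLE -0.14, adjusted p = 0.694), and reads shared between paralogues make both values uncertain. Cstb, which encodes the cytosolic cysteine cathepsin inhibitor stefin B, was higher after RLE only (156 ± 34.0 against 95.5 ± 25.1 CPM as deposited; RLE 0.46 ± 0.14, adjusted p = 0.041), with groups that overlapped. Cst7, cystatin F, averaged 2.94 and 1.77 CPM and was not called. Of 5 tested genes on the list, 0 rose and 1 fell on the deposited scale, and 1 rose and 1 fell after RLE. Among all tested genes 1.81% were called higher and 3.5% lower as deposited, and 7.18% and 9.91% after RLE.

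**Figure D4:**
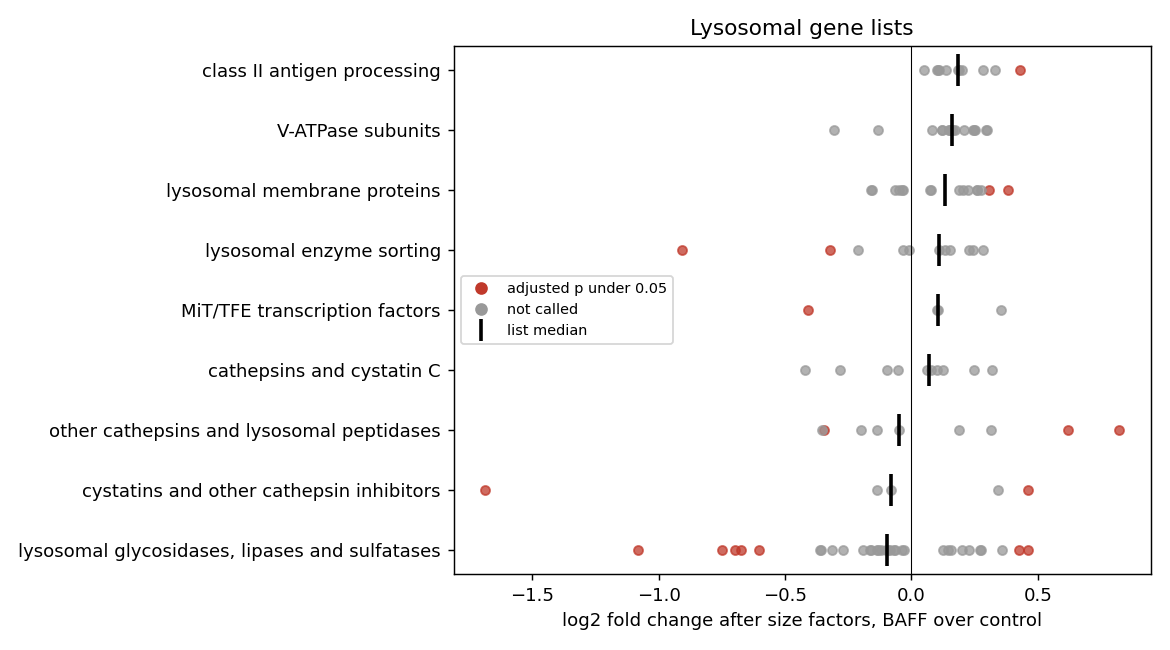
RLE-scaled log2 fold change, BAFF over control tumours, of every tested gene on the lysosomal lists; red points had a limma adjusted p under 0.05 and black bars mark list medians. The cathepsins and cystatin C have 0 red points and a median of 0.07.

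Of 32 glycosidase, lipase and sulfatase genes 0 were called on the deposited scale, where 5.31% of all tested genes were. After RLE 5 fell and 2 rose, with a list median of -0.10, where 9.91% of all tested genes fell and 7.18% rose. Arsb, which removes sulfate from dermatan and chondroitin chains, fell by 1.08 (SE 0.20, limma adjusted p = 0.00301). Naglu and Sgsh, of heparan sulfate breakdown, Glb1, the beta-galactosidase that Ctsa protects, and Smpd1, acid sphingomyelinase, fell too (-0.75, -0.67, -0.70 and -0.60, adjusted p at most 0.0262); Tpp1 and these 4 were named after their values were seen. Gm2a, the ganglioside activator, and Gla, alpha-galactosidase A, rose by 0.43 and 0.46 (adjusted p = 0.0187 and 0.0422). Psap, the saposin precursor gene that Ctsd helps process, was not called at 6019 ± 530 and 4667 ± 1490 CPM as deposited (RLE 0.16, adjusted p = 0.543).

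Few membrane, proton pump and sorting genes passed the test, where 7.18% of all tested genes rose and 9.91% fell after RLE. Of 16 lysosomal membrane genes 2 rose after RLE, the cholesterol transporter gene Npc1 (0.31) and the peptide transporter gene Slc15a3 (0.38), with limma adjusted p = 0.0397 and 0.0282. Of 16 V-ATPase genes 0 were called, with a median of 0.16. Of 11 sorting genes 2 fell, Sort1, the sortilin receptor that carries hydrolases to the lysosome (-0.91 ± 0.11, adjusted p = 0.000291), and the progranulin gene Grn (-0.32, adjusted p = 0.0463), named after its value was seen. M6pr, a mannose 6-phosphate receptor gene, was not called (0.28 ± 0.11, adjusted p = 0.0963). Neither was Igf2r, the other such receptor gene on the list (0.13, adjusted p = 0.5525). None of these passed on the deposited scale, where 5.31% of all tested genes did.

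Of the 11 genes of class II antigen processing, the pathway in which cathepsin S acts, all had a fold change above 0 after RLE (0.05 to 0.43) and 1 was called, H2-DMb1 of the peptide-loading dimer (0.43 ± 0.13, limma adjusted p = 0.0374). The list median was 0.18, against 0.01 for all tested genes, of which 7.18% were called higher after RLE. This lean was not particular to the list. The 9 myeloid identity genes also lay above 0 after RLE (0.14 to 0.64, median 0.30), with 3 called higher. Cd74, the invariant chain that cathepsin S cleaves, stood at 2756 ± 475 and 2093 ± 739 CPM as deposited (RLE 0.18 ± 0.17, adjusted p = 0.517).

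Other cell markers moved in the same libraries as the cathepsin mix. After RLE the summed Ly6C-high monocyte markers were 4301 to 4786 CPM in BAFF tumours and 3146 to 3787 CPM in controls, with 8 of 11 called higher, among them Chil3 by 1.37. The summed myeloid identity genes were 8964 to 9783 and 6188 to 7913 CPM. Tumour macrophage markers summed to 2878 to 3235 and 4237 to 5268 CPM, with 7 of 12 called lower, C1qa by 1.03 (-1.03), and 1 higher. Pigment cell markers summed to 82.4 to 170 and 509 to 656 CPM, with 10 of 11 tested called lower. After RLE none of these 4 sums overlapped between groups. Among all tested genes 7.18% were called higher and 9.91% lower after RLE, and 1.81% and 3.5% as deposited. As deposited, 4 Ly6C-high, 0 myeloid identity, 0 tumour macrophage and 10 pigment cell markers were called, and the macrophage sums (3165 to 3454 and 2946 to 6675 CPM) and the myeloid identity sums (9582 to 11166 and 5303 to 9943 CPM) overlapped. No marker on the 4 lists was at 0 in any library. After RLE neutrophil markers summed to 127 to 170 and 65.4 to 116 CPM, dendritic cell markers to 38.1 to 49.3 and 26.7 to 38.8 CPM. As deposited the neutrophil sums (141 to 182 and 59.1 to 146 CPM) overlapped between groups. The deposited dendritic cell sums (40.7 to 52.6 and 24.2 to 46.9 CPM) overlapped too. After RLE T and NK cell markers summed to at most 19.8 CPM in any library. B and plasma cell markers then summed to at most 25.1 CPM and endothelial markers to at most 38.4 CPM. The B cell gene Cd79a and the endothelial genes Tie1, Tek and Esam were at 0 in at least 1 library. Of 7 tested neutrophil markers 4 were called higher as deposited and 2 after RLE. Of 8 tested dendritic cell markers 2 were called higher on both scales. Of 3 tested endothelial markers 0 were called as deposited and 2 were higher after RLE. Of 3 tested B and plasma cell markers 2 were called lower on both scales, and T and NK cell markers gave 0 calls. The part of any of these cells in the Ctss, Ctsh, Ctsd and Ctsl shares was not tested, and in bulk RNA fewer cells of a type and less RNA per cell cannot be told apart.

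The genes nearest to each member were taken by the root mean square difference of centred RLE log2 values over 6 libraries, among 4945 other genes that averaged at least 20 CPM. For Ctsl these were Slc27a1, Gpnmb and Vat1 (0.11, 0.12 and 0.15), and Ctsd was its nearest fellow member (0.17), at place 11. For Ctsd they were BC004004, Arhgap18 and F13a1 (0.056, 0.071 and 0.079). For Ctss, Capza2 and Hnrnpk were among them (0.024 and 0.029), and Ctsh was its nearest member (0.076), at place 213. For Ctsb the lysosomal membrane gene Lamp1 came second (0.048), and for Ctsa the lysosomal nuclease gene Dnase2a second (0.036). With 6 libraries and 1 contrast many genes come this near, so the lists describe these libraries.

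Ctsk and Ctss are neighbours on chromosome 3 in RefSeq gene order (GRCm38.p6). Their fold changes after RLE were 0.10 and 0.32, and the Ctss to Ctsk ratio was 164, 144 and 179 in BAFF tumours and 139, 143 and 138 in controls. The ratio did not overlap between groups (exact permutation p = 0.1), with BAFF tumour 2 just above control tumour 2. The library kit does not mark strand, and exons of Ctsa, Ctsb, Ctsl and Ctsz overlap genes on the opposite strand in GENCODE M21. Of those partners Fdft1, which overlaps Ctsb, reached 32.1 CPM and Pltp, which overlaps Ctsa, 64.3 CPM at most, and Neurl2 and Nelfcd stayed below them. Gm49369, which shares 34.4% of the Ctsd exon bases on the same strand, was listed at 0.3 CPM or less. For Ctsl the antisense gene Gm47123 and the pseudogene Gm49230 cover 26.8% and 6.09% of the exon bases and were not analysed here, so the Ctsl level is uncertain.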

How the data were processed

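RNA sequencing libraries of 6 samples were grouped by title, 3 from BAFF tumours and 3 from control tumours. The authors deposited 1 table in CPM, a unit read from its values: a step per library was found of which 82.8% to 85.8% of low values were whole multiples (tolerance 0.02), so no count model was used. The column spelled Conrol 2 was taken as control tumour 2. The submitters' processing notes name Partek, STAR (2.4.1d) and Bowtie2 (2.2.5); for build, annotation and counting rule the entry is: not given in the sources used here. Libraries were made with a TruSeq RNA v2 kit, per the labels' protocols, which does not mark strand. No pair within a group was alike to within sampling noise (chi-square per degree of freedom at least 8.12).

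Values were tested with limma-trend (limma 3.58.1, R 4.3.3) on log2(CPM + 1), deposited scale, for 12824 genes averaging at least 1 CPM, Benjamini-Hochberg adjusted over all of them and a threshold of 0.05. The pseudocount of 1 understates changes of low genes. On the deposited scale the prior degrees of freedom were infinite, so SEs are pooled over genes of like level. RLE factors were medians of ratios to the geometric mean over tested genes. Errors of CPM are SD (n = 3), of fold changes SE; depth-based statements cover counting error only. The procedure was tested on simulated data. Sums, shares and ratios used exact permutation over samples. Shares, pair ratios, motifs and depth splits were chosen after seeing the data. Named genes were the 10 members, the 3 members of each pathway list with the smallest p and its most abundant, the most abundant and smallest-p member of marker lists, and 3 nearest genes per member; exceptions are stated, and some named genes are not reported here. The members and lists were chosen with earlier results of these data known. Of the listed symbols 18238 matched GENCODE M21.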

Additional observations from a re-analysis of the deposited data

How the results depend on the processing

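Over the whole table limma called 681 genes. Size factors (RLE) gave 2192, upper-quartile factors 2080, a filter at a mean of 5 CPM 316 and RLE with the replicate block 1940. Leaving out 1 library gave 170 (without BAFF tumour 3) to 5149 (without control tumour 1). With RLE it gave 1524, 1349 and 1830 without BAFF tumours 1, 2 and 3, and 1732, 1699 and 1819 without control tumours 1, 2 and 3. Chosen after seeing the data, leaving out control tumours 2 and 3, high in ribosomal RNA, gave 1805 and, with RLE, 1100. The members called higher numbered 0 to 3 without 1 library, the 3 without control tumour 1 on the deposited scale, and 0 were called lower in any of the 23 fits. The summed cathepsins differed by 0.23 (log2), by -0.026 after RLE and by -0.029 to 0.51 without 1 library.

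Several members changed sign without being called. Ctsa and Ctsb stood at -0.054 and -0.095 after RLE, with or without the block, at -0.10 and -0.14 with upper-quartile factors, at -0.091 and -0.052 with RLE in the 4 shallow libraries, and at -0.056 and -0.27 with RLE without control tumours 2 and 3. With RLE and 1 library left out, Ctsa stood at -0.075 and -0.082 without BAFF tumours 1 and 2 and at -0.065, -0.086 and -0.023 without control tumours 1, 2 and 3. Ctsb stood at -0.13, -0.13 and -0.019 without BAFF tumours 1, 2 and 3 and at -0.021, -0.12 and -0.16 without control tumours 1, 2 and 3. Without BAFF tumour 2, Ctsk stood at -0.014 and Ctsz at -0.017. In the shallow libraries Ctsk, Ctsz and Cst3 stood at -0.0015, -0.059 and -0.0017. On the deposited scale without control tumours 2 and 3, Ctsa, Ctsb, Ctsc, Ctsh, Ctsk, Ctsz and Cst3 stood at -0.26, -0.47, -0.10, -0.12, -0.13, -0.077 and -0.075. Deposited ranges without 1 library were -0.12 to 0.47 for Ctsb, -0.28 to 0.28 for Ctsd and -0.40 to 0.11 for Ctsl. The cause was not tested. Fits without control tumours 2 and 3 assume that the lone control varies like the BAFF tumour libraries.

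The replicate block alone gave 608 genes and called 0 members. Deviations from the group mean after RLE correlated at -0.049, 0.052 and -0.039 between same-numbered libraries, for numbers 1 to 3. Between differently numbered libraries they correlated at -0.055 to 0.089. With 3 libraries a group this check cannot exclude a pairing or a shared batch. The main fits used the numbers only as names. A 3 against 3 design cannot reach an exact p under 0.1, and depth limits Ctsk most, at about 30 reads in control tumour 3.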
